A study of Apis mellifera with 27 samples.

Results

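The dopamine receptor genes Dop1, DopR2 and Dop3 of the honey bee, Apis mellifera, were followed across time and colony in captured tissue of the mushroom bodies in which small Kenyon cells were enriched. They were taken by gene name, as 3 of the 12319 gene identifiers with counts, and all 3 passed the filter on low counts that left 9816 genes for testing. The tissue was cut out by laser capture microdissection from foragers that had been trained to a time of day, and its polyadenylated RNA was sequenced. Bees were collected at 06:00, 10:00, 14:00, 18:00 and 22:00 on day 11 and at 02:00 and 06:00 on day 12, from 2 colonies whose behavioural experiments were run separately, with 2 replicate libraries per colony and time point. All groups shared the training, and no genetic or drug treatment was given in the labels. The 27 libraries analysed here include 1 library only for colony 2 at 06:00 on day 11, since its other replicate was not analysed here. The labels give neither the subspecies nor the age of the bees, nor whether a library came from 1 bee or several. The p-values therefore measure the spread between these libraries, which may in part be technical.

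Dopamine reaches the mushroom bodies of insects from modulatory neurons whose cell bodies lie outside the Kenyon cell layer, and it carries reinforcement signals during learning. Kenyon cells receive it through G protein-coupled receptors. In the honey bee, Dop1 encodes a D1-like receptor that raises cyclic AMP, DopR2 encodes a second receptor that raises cyclic AMP and belongs to an invertebrate type, and Dop3 encodes a D2-like receptor that lowers cyclic AMP. Small Kenyon cells are one of the classes of intrinsic neurons of the mushroom body, and a release of dopamine can thus meet receptors of opposite sign.

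Levels are given as CPM, counts relative to the library total, scaled between libraries by the trimmed mean of M-values (TMM), and an adjusted p is a Benjamini-Hochberg value over the 9816 genes from the quasi-likelihood test of edgeR, called under 0.05. Total counts were 8732841 to 12277539 in colony 1 and 5589770 to 10846551 in colony 2. On the first principal component 3 colony 2 libraries had the highest scores (66.0 to 94.7), the 06:00 day 11 library (replicate 2) and both 10:00 day 11 libraries. These are called the libraries that stood apart, and results are given with and without them where a call or direction changed or a called value moved. The first colony 2 library of 14:00 came next at 45.0, and the score after it was 10.7. It was kept among the 10 colony 2 libraries that did not stand apart, so the cut is a choice. No result given here leaves it out together with the libraries that stood apart. The markers listed for small Kenyon cells and found among the genes, Ecr, E74, E75 and Tk, had counts in every library. Their summed level was 1907 to 2718 CPM in colony 1, 1436 to 2971 CPM in the 10 colony 2 libraries that did not stand apart, and 696 CPM in the 06:00 day 11 colony 2 library. Genes listed for large and middle Kenyon cells (Mblk-1, Camkii, Ip3k and Pkc) were also present in every library. Which cells their counts came from was not tested. The receptor values belong to captured bulk tissue and cannot be assigned to 1 cell class. In such bulk tissue, fewer cells of a type and less RNA per cell cannot be told apart.

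All 3 receptor genes were detected in every library. Dop1 had between 467 and 4112 counts per library with a median of 2553, DopR2 between 447 and 3851 with a median of 2718, and Dop3 between 54 and 487 with a median of 259. Levels were not compared between the genes, because no transcript length was at hand. The biological coefficient of variation around the colony and time means was 0.274 for Dop1, 0.306 for DopR2 and 0.292 for Dop3. The 500 genes nearest in mean level to each had median values of 0.176, 0.175 and 0.244, in the same order. With all libraries included, each receptor gene therefore varied more between libraries than the median gene of its own level. These values include the library that had the lowest level of all 3 genes, described below. The part of that library in the spread was not tested.

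Dop1, the D1-like receptor gene, had its highest mean at 10:00 and its lowest at 06:00 on day 11. At 06:00 on day 11 its level was 288 and 252 CPM in the colony 1 libraries and 54.2 CPM in the colony 2 library. At 10:00 it was 458 and 334 CPM in colony 1 and 363 and 350 CPM in colony 2. These 4 morning libraries lay above every library of the other times except those of colony 2 at 18:00.

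At 14:00 Dop1 measured 309 and 276 CPM in colony 1 and 194 and 317 CPM in colony 2. At 18:00 it measured 297 and 291 CPM in colony 1 and 406 and 360 CPM in colony 2, the only time at which both colony 2 libraries lay above both of colony 1. At 22:00 the values were 276 and 261 CPM in colony 1 and 205 and 265 CPM in colony 2. The evening libraries were thus close together and on the low side. At 02:00 on day 12 Dop1 was 308 and 260 CPM in colony 1 and 299 and 318 CPM in colony 2. At 06:00 on day 12 it was 301 and 293 CPM in colony 1 and 311 and 190 CPM in colony 2, so that the second dawn had a single low library, of colony 2. In order of means, Dop1 ran from 376 ± 55.7 CPM (SD, n = 4) at 10:00 through 18:00, 02:00, 14:00, 06:00 on day 12 and 22:00 (252 ± 31.9 CPM, n = 4) to 198 ± 126 CPM (n = 3) at 06:00 on day 11. Neighbours in that order overlapped in every case.

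DopR2, the second receptor that raises cyclic AMP, followed another order, with its highest means at 02:00 and at 06:00 on day 12. Its level at 06:00 on day 11 was 392 and 314 CPM in colony 1 and 51.9 CPM in the colony 2 library. At 10:00 it was 355 and 276 CPM in colony 1 and 199.8 and 226 CPM in colony 2. The morning libraries of colony 2 were thus low for DopR2 while the same libraries were high for Dop1.

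At 14:00 DopR2 measured 295 and 268 CPM in colony 1 and 191 and 308 CPM in colony 2. At 18:00 the values were 283 and 246 CPM in colony 1 and 324 and 233 CPM in colony 2, and at 22:00 they were 268 and 260 CPM in colony 1 and 232 and 264 CPM in colony 2. The colonies overlapped at 14:00, 18:00 and 22:00. At 02:00 DopR2 was 353 and 277 CPM in colony 1 and 278 and 320 CPM in colony 2, and at 06:00 on day 12 it was 392 and 318 CPM in colony 1 and 333 and 177 CPM in colony 2. In colony 1 the highest value, 392 CPM, was reached at both dawns. The time means spanned 253 CPM at 06:00 on day 11 to 307 CPM at 02:00, and every neighbour in that order overlapped with the next.

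Dop3, the D2-like receptor gene, gave values of 24.6 to 45.5 CPM in colony 1 and 6.27 to 35.8 CPM in colony 2. Its highest time mean, 31.8 CPM at 22:00, combined 39.3 and 45.5 CPM in colony 1 with 16.5 and 25.8 CPM in colony 2. At 10:00 it measured 25.9 and 30.3 CPM in colony 1 and 13.6 and 23.9 CPM in colony 2. The highest value of colony 1 was thus at 22:00 and that of colony 2, 35.8 CPM, at 14:00.

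The remaining Dop3 values show how steadily the colonies were separated. At 14:00 the level was 33.1 and 34.8 CPM in colony 1 and 17.4 and 35.8 CPM in colony 2, the only time with overlap, through 1 library of colony 2. At 18:00 it was 33.0 and 33.6 CPM in colony 1 and 31.1 and 26.5 CPM in colony 2. At 02:00 the level was 35.4 and 31.0 CPM in colony 1 and 16.2 and 29.3 CPM in colony 2. The dawn values were 35.4 and 24.6 CPM in colony 1 and 6.27 CPM in colony 2 on day 11, and 41.4 and 32.3 CPM in colony 1 and 22.4 and 14.0 CPM in colony 2 on day 12. In the plot of receptor levels by library the colony 2 points of Dop3 lie below those of colony 1 at nearly every hour.

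**Figure D1:**
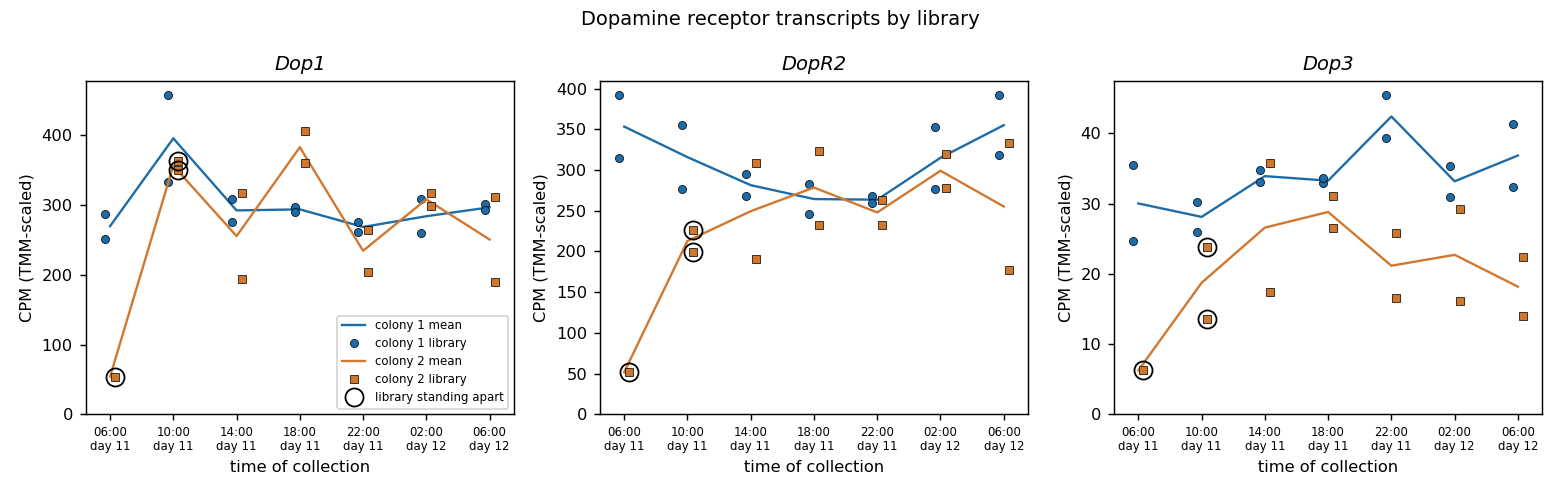
Level of Dop1, DopR2 and Dop3 (CPM, linear axes from 0) in each of the 27 libraries by time of collection, with the colonies in separate colours the mean of each colony drawn as a line and the 3 libraries that stood apart circled. Dop1 is highest at 10:00 (334 to 458 CPM), the 06:00 day 11 library of colony 2 is the lowest for all 3 genes, and Dop3 is lower in colony 2.

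The first question was whether the receptor transcripts changed over the day. None of the 3 genes passed the test over the 7 time points, which called 2.29% of all genes tested. For Dop1 the fitted time means spanned 1.01 on the log2 scale (adjusted p = 0.331). For DopR2 the span was 0.45 (adjusted p = 0.941) and for Dop3 it was 0.78 (adjusted p = 0.571). The Dop1 span was 0.58 in colony 1 alone and 2.82 in colony 2 alone, or 0.70 in colony 2 without its 06:00 day 11 library. A single daily cosine gave adjusted p-values of 0.621, 0.930 and 0.293 for Dop1, DopR2 and Dop3, where 4.31% of genes were called.

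Within colony 1 alone, where the libraries were closer to each other, DopR2 passed the cosine test (adjusted p = 0.0325, with 5.4% of genes called). Its fitted peak was at 6.61 h, with the peak 1.36-fold above the trough. In colony 2 alone the same test gave an adjusted p of 0.745 (0.00981% of genes called), and the test of a difference in cosine between the colonies gave 0.484 (0.0204% of genes called), so a difference between colonies in the daily course of DopR2 was not shown by it. Without its 06:00 day 11 library colony 2 alone gave a cosine adjusted p of 0.709 for DopR2, where 153 of 9645 genes were called. The fitted peak there was at 23.3 h. Over the 7 time points in colony 1 alone the adjusted p was 0.262 for DopR2 and 0.0938 for Dop1, where 3.82% of genes were called.

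The comparison of 10:00 with 22:00 sets the morning against the late evening. Dop1 was 334 to 458 CPM at 10:00 and 205 to 276 CPM at 22:00, with no overlap, a pattern that 2.96% of all genes shared. Its log2 difference was 0.58 (95% interval 0.01 to 1.15; adjusted p = 0.289), and it was not called, as 2.16% of genes were. The difference was 0.58 in colony 1 alone, where it passed (adjusted p = 0.0209, with 4.31% of genes called), and 0.61 in colony 2 alone, where it did not (adjusted p = 0.166). Without the 06:00 day 11 library of colony 2, which is part of neither time but enters the estimate of the spread, it was 0.58 and was called (adjusted p = 0.0287, with 5.33% of genes called). Without all 3 libraries that stood apart it was 0.64 with an adjusted p of 0.164.

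The other receptors did not share that difference. DopR2 differed by 0.02 (adjusted p = 0.984) and Dop3 by -0.39 (adjusted p = 0.526) on the log2 scale between 10:00 and 22:00. In colony 1 alone Dop3 was lower at 10:00 by a log2 difference of -0.58, with an adjusted p of 0.0974. The glial transporter gene Eaat-2, the one glial marker found, measured 72.7 to 165 CPM at 10:00 (median 138) and 44.3 to 79.1 CPM at 22:00 (median 54.5). The 6 gland, fat body and hemolymph genes summed to a median of 309 CPM at 10:00 and 183 CPM at 22:00, with every 10:00 library above those of 22:00, though the nearest differed by under 1 CPM (272.3 and 271.8). The muscle genes had medians of 147 and 93.2 CPM and the opsin genes 228 and 118 CPM, with overlap. The opsin genes did not move together. Lop1 and Blop had higher means at 10:00 (185 against 81.1 CPM for Lop1), and Uvop and Lop2 lower (17.5 against 35.6 CPM for Uvop). Of the opsin genes 1 was called, as lower at 10:00, with 2.16% of all genes called. Small Kenyon cell markers summed to medians of 2150 CPM at 10:00 and 2167 CPM at 22:00, but did not move together. Mean Tk was lower at 10:00 (989 against 1245 CPM), and the means of Ecr, E74 and E75 were higher (300 against 203 CPM for E74). The genes of large and middle Kenyon cells summed to medians of 8272 CPM at 10:00 and 6255 CPM at 22:00, with overlap. The part of these tissues in the Dop1 difference was not tested.

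Pooling the hours of 10:00, 14:00 and 18:00 as day and those of 22:00 and 02:00 as night left all 3 genes uncalled, against 3.81% of all genes called. The log2 difference, day minus night, was 0.26 for Dop1 (95% interval -0.11 to 0.63; adjusted p = 0.440), -0.08 for DopR2 (-0.49 to 0.33; adjusted p = 0.865) and -0.04 for Dop3 (-0.43 to 0.35; adjusted p = 0.930). These intervals admit day to night differences of up to 0.63 for Dop1.

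Between 14:00 and 02:00 the log2 differences were -0.12, -0.22 and 0.14 for Dop1, DopR2 and Dop3, with adjusted p-values of 0.892, 0.826 and 0.886, and the test called 0.0917% of genes. Between the dawns, the same clock hour on consecutive days, the differences were 0.55, 0.42 and 0.51 with adjusted p-values of 0.477, 0.633 and 0.531. For the dawns edgeR called 0 of 9816 genes (0.0%), with 1138 at an unadjusted p under 0.05, and DESeq2 called 1. The day 11 dawn rests on 3 libraries, 1 of which had the lowest level of each receptor gene.

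A ratio of counts taken within a library needs no scaling between libraries, and it showed how Dop1 and DopR2 moved against each other. The ratio is not corrected for length, so only its changes are compared. At 10:00 the count of Dop1 divided by that of DopR2 was 1.29 and 1.21 in colony 1 and 1.82 and 1.55 in colony 2. At 14:00 it was 1.05 and 1.03 in colony 1 and 1.02 and 1.03 in colony 2, and at 18:00 it was 1.05 and 1.18 in colony 1 and 1.25 and 1.55 in colony 2. All 12 day libraries had more Dop1 than DopR2 counts. The ratios of 14:00 nevertheless lay within the range of the night libraries, 0.874 to 1.07. The day libraries above that range were all of 10:00 and 18:00.

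At night the ratio was near or below 1. It was 1.03 and 1.01 in colony 1 and 0.882 and 1.003 in colony 2 at 22:00, and 0.874 and 0.938 in colony 1 and 1.07 and 0.993 in colony 2 at 02:00. At dawn it was 0.734 and 0.801 in colony 1 and 1.04 in colony 2 on day 11, and 0.770 and 0.919 in colony 1 and 0.934 and 1.07 in colony 2 on day 12. The lowest 3 ratios of colony 1 were thus at dawn, and the 06:00 day 11 library of colony 2, so low for both genes, kept a ratio of 1.04.

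Averaged on the log2 scale over the 12 day and 8 night libraries, the Dop1 to DopR2 ratio was 0.34 higher by day, a 1.26-fold difference. The exact permutation test, two-sided, with labels exchanged within each colony, gave p = 0.00304, and 0.00912 after adjustment over the 3 pairs of receptor genes. The test exchanged single libraries, so replicates of the same colony and time point were treated as independent and the p-value may be too small. It compares averages and does not show a rise at every day hour. As background, the ratio of other genes to DopR2 was higher by day at an exact p under 0.05 for 9.57% of genes, and their ratio to Dop1 was lower by day for 26.9%. A day-high ratio to DopR2 was thus found for many other genes, and fewer genes rose by day relative to Dop1, 0.835%.

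The direction was the same in either colony. The difference was 0.23 in colony 1 alone (exact p = 0.0286, adjusted 0.0857) and 0.44 in colony 2 alone (exact p = 0.0524, adjusted 0.157), with 6 day and 4 night libraries in each, so that neither passed after adjustment. Without the libraries that stood apart it was 0.26 (exact p = 0.00415, adjusted 0.0124). With the 06:00 libraries counted as night, a choice made after the values were seen, it was 0.39 (exact p = 2.17e-05, adjusted 6.52e-05). Median Eaat-2 was 89.2 CPM by day and 50.3 CPM at night. The gland, fat body and hemolymph genes summed to medians of 303 CPM by day and 157 CPM at night, the muscle genes to 94.4 and 61.3 CPM and the opsin genes to 118 and 110 CPM, all with overlapping ranges. Of the opsin genes 1 was called, as lower by day, with 3.81% of all genes called. The part of these tissues in the ratio was not tested. The small Kenyon cell markers summed to medians of 2246 CPM by day and 2183 CPM at night. The genes of large and middle Kenyon cells summed to medians of 7488 CPM by day and 6524 CPM at night, with overlapping ranges. The part of Kenyon cell classes in the ratio was not tested either.

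**Figure D2:**
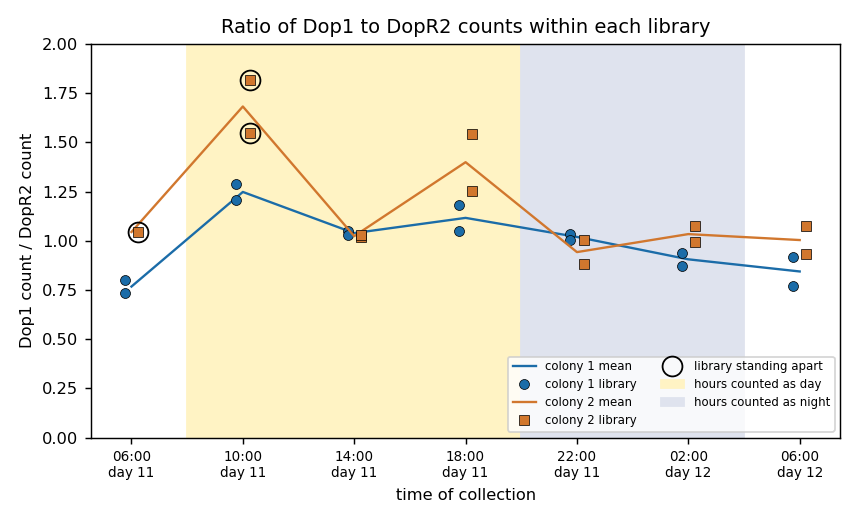
Count of Dop1 divided by the count of DopR2 within each library (linear axis from 0) by time of collection, for both colonies, with colony means as lines, the libraries that stood apart circled and the hours counted as day or night shaded. The 12 libraries of 10:00 to 18:00 lie above 1, between 1.02 and 1.82, and the 8 libraries of 22:00 and 02:00 lie between 0.874 and 1.07.

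The ratios to Dop3 did not pass the test between day and night. Dop1 to Dop3 was 0.30 higher by day on the log2 scale (exact permutation p = 0.148, adjusted 0.223), and DopR2 to Dop3 differed by -0.04 (exact p = 0.799). The ratio of other genes to Dop3 differed at an exact p under 0.05 for 6.81% of genes.

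The second question was whether the colonies differed, and Dop3 was the one receptor gene called. Its mean was 34.0 ± 5.55 CPM (SD, n = 14) in colony 1 and 21.4 ± 8.30 CPM (n = 13) in colony 2. The log2 difference was -0.75 (SE 0.166; 95% interval -1.09 to -0.41), so that Dop3 was 1.68-fold lower in colony 2 (adjusted p = 0.00222). The test called 24.9% of all genes, 14.3% as lower in colony 2, so that a call was common. The mean of Dop3 was lower in colony 2 at 7 of 7 time points, as for 7.83% of all genes. All colony 2 libraries lay below those of colony 1 at 6 of 7, where 3.89% of all genes had this at 6 or more. These shares are not taken among the genes called lower, so they do not set Dop3 apart from those. At 06:00 on day 11 colony 2 had 1 library, which was the lowest for each receptor gene.

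DopR2 fell short of the threshold, with 307 ± 48.5 CPM (n = 14) in colony 1 and 241 ± 77.7 CPM (n = 13) in colony 2, a log2 difference of -0.39 (95% interval -0.76 to -0.03; adjusted p = 0.103). Without the libraries that stood apart its difference was -0.15 (adjusted p = 0.413). Dop1 had 300 ± 50.4 CPM in colony 1 and 279 ± 96.0 CPM in colony 2, and its log2 difference was -0.21 (95% interval -0.53 to 0.11; adjusted p = 0.336). Colony means of DopR2 were lower in colony 2 at 6 time points and those of Dop1 at 5.

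Dop3 remained lower in colony 2 without the libraries that stood apart, by a log2 difference of -0.63 (adjusted p = 0.00735). When the libraries of a colony and time point were summed, the difference was -0.84 with an adjusted p of 0.0918, in a fit that called 24 genes in all. The colony is confounded with its experiment, which was run separately, and these cannot be told apart.

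Markers of other cell types also differed in range between the colonies. The opsin genes Uvop, Blop, Lop1 and Lop2 of photoreceptors summed to 42.3 to 174 CPM in colony 1 and to 65.6 to 364 CPM in the colony 2 libraries that did not stand apart, with Lop2 at 0 in 3 libraries. Of these genes 2 were called higher and 1 lower in colony 2, with 24.9% of all genes called. Mean Lop1 was 50.0 CPM in colony 1 and 167 CPM in colony 2, and mean Uvop 37.0 and 25.6 CPM. The 6 muscle troponin genes tested summed to 36.1 to 169 CPM and 16.6 to 251 CPM, and a further one, TpnCIIb, was at 0 in 23 libraries. The summed small Kenyon cell markers overlapped widely, as given above. The genes of large and middle Kenyon cells summed to 5347 to 8036 CPM in colony 1 (median 5985). In the colony 2 libraries that did not stand apart they summed to 3920 to 11093 CPM (median 7107). The part of these tissues in the Dop3 difference was not tested. A long noncoding RNA gene that overlaps Dop3 in the RefSeq table of the assembly Amel_HAv3.1, LOC102654507, had a median of 91 counts and a colony difference of -0.13 (adjusted p = 0.711). No source used here states whether the counting used strand, and reads of Dop3 and of this gene cannot be told apart with certainty.

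Relative to the other receptors Dop3 was also lower in colony 2. As background, the ratio of other genes to Dop3 was higher in colony 2 at an exact p under 0.05 for 70.0% of genes, so the receptor ratios share a difference found for most genes. The Dop1 to Dop3 ratio was 0.50 higher in colony 2 on the log2 scale, a 1.42-fold difference (exact permutation test within time points, two-sided, p = 0.000600, adjusted 0.00180), and 0.62 higher without the libraries that stood apart (adjusted 0.00116). The DopR2 to Dop3 ratio was 0.29 higher (exact p = 0.0387, also 0.0387 after adjustment), and 0.50 higher without them (adjusted 0.00116). That call for DopR2 to Dop3 was lost when any 1 of 13 libraries was left out, where the difference lay between 0.24 and 0.31. The Dop1 to DopR2 ratio was 0.21 higher in colony 2 (exact p = 0.00246, adjusted 0.00370), as the ratio to DopR2 was for 41.7% of genes, but 0.13 without the libraries that stood apart (adjusted 0.0666).

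**Figure D3:**
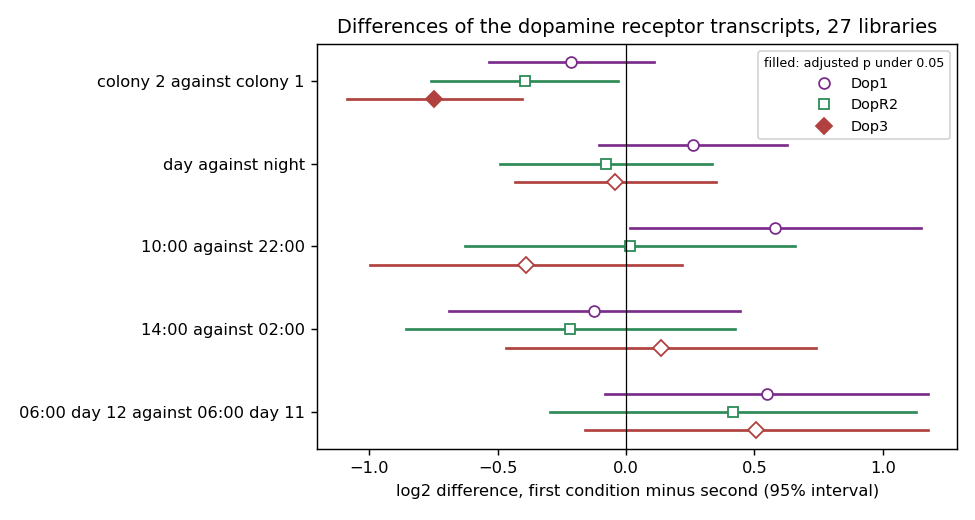
Fitted log2 differences of Dop1, DopR2 and Dop3 with 95% intervals in 5 comparisons over the 27 libraries, each as the first condition minus the second, with filled symbols for an adjusted p under 0.05. Dop3 in colony 2 against colony 1 (-0.75) is the one filled symbol, and the other intervals of Dop3 include 0.

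The third question was whether the time courses differed between the colonies. The test of a colony by time interaction called Dop1 (adjusted p = 0.000589) and DopR2 (adjusted p = 0.00125) and not Dop3 (adjusted p = 0.138), where 22.5% of all genes were called. This rested on 1 library. Without the 06:00 day 11 library of colony 2 the adjusted p was 0.557 for Dop1 and 0.684 for DopR2, with 2.14% of genes called, and without the 3 libraries that stood apart it was 0.604 and 0.846. Dop3, in turn, had an adjusted p of 0.0462 without the lower 14:00 library of colony 2.

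Colony 2 alone showed the same dependence. Over its 7 time points Dop1 (adjusted p = 0.000358) and DopR2 (adjusted p = 0.00427) were called, with 21.2% of genes. Once the 06:00 day 11 library was left out, the adjusted p-values were 0.211 for Dop1, 0.806 for DopR2 and 0.863 for Dop3, with 5.53% of genes called.

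In that library all 3 receptor genes were lower than in any other. Dop1 was at 54.2 CPM against 190 to 406 CPM in the 10 colony 2 libraries that did not stand apart, a log2 difference of -2.39 from their mean with 0.5 CPM added, or 5.24-fold lower. DopR2 was at 51.9 CPM against 177 to 333 CPM (log2 difference -2.35, 5.09-fold lower). Dop3 was at 6.27 CPM against 14.0 to 35.8 CPM (-1.83, 3.54-fold lower). Of all genes, 20.5% were at least 2-fold lower in that library, and 1.98%, 2.17% and 5.52% were at least as low in this measure as Dop1, DopR2 and Dop3.

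Most other genes of Kenyon cells were low with them, and some genes of other tissues were high. The 4 amine receptor genes at 10 CPM or more, Oa1, TyrR, 5-HT1 and 5-HT2alpha, lay below all 10 comparison libraries, with a median log2 difference of -2.30, as did all 4 small Kenyon cell markers, with a median of -1.49. Of the 4 large and middle Kenyon cell genes 3 did so, and Ip3k differed by 0.02. A value below all of them was found for 25.4% of genes. Troponin genes had a median log2 difference of 1.37, and 2 of 4 lay above all 10. The glial transporter gene Eaat-2 differed by 1.61 and Hbg3, an alpha-glucosidase gene of the hypopharyngeal gland, by 1.88. Def1, a defensin gene also in the gland, fat body and hemolymph list, differed by -0.73. The opsin genes Uvop and Lop1 differed by 0.11 and 0.85, within the range of the 10. The part of each tissue in the low receptor values was not tested.

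**Figure D4:**
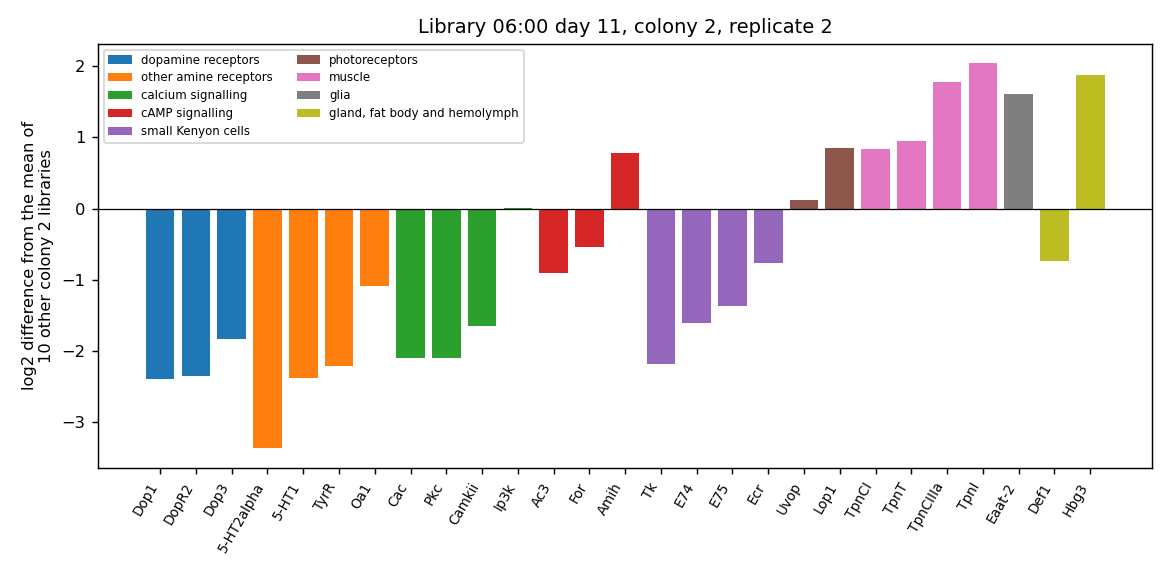
Log2 difference of single genes in the 06:00 day 11 library of colony 2 from the mean of the 10 colony 2 libraries that did not stand apart, in groups from receptors to markers of other tissues. The receptor genes Dop1 (-2.39), DopR2 (-2.35) and Dop3 (-1.83) and the small Kenyon cell markers lie below 0, and Eaat-2 (1.61) and Hbg3 (1.88) lie above.

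The 10:00 libraries of colony 2, the other 2 that stood apart, did not share these values. Dop1 was 363 and 350 CPM in them, log2 differences of 0.34 and 0.29 from the mean of the 10. DopR2 differed by -0.41 and -0.23, and Dop3 by -0.77 and 0.02. Dop1 was thus above that mean and DopR2 below it in both.

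Across the 27 libraries, with each colony's mean removed, the log2 levels of the receptor genes ran together, and this is given as a description, since the libraries share the tissue capture and the scaling. Pearson's r was 0.859 between Dop1 and DopR2, 0.704 between Dop1 and Dop3, and 0.770 between DopR2 and Dop3. Without the 3 libraries that stood apart (24 libraries) these were 0.643, 0.449 and 0.436. In the 14 colony 1 libraries alone they were 0.363, -0.358 and -0.0963. All 3 correlations were lower in both smaller sets of libraries.

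The genes most like each receptor gene in this measure, among 7300 genes averaging at least 10 CPM, included another amine receptor for Dop1. The 5 most similar to Dop1 were LOC409792 (r = 0.959), 5-HT1 (0.955), PHRF1 (0.954), LOC727223 (0.951) and LOC413558 (0.949). 5-HT1 encodes a serotonin receptor, and its r with Dop1 was 0.839 without the libraries that stood apart and 0.707 in colony 1 alone. For PHRF1 these were 0.855 and 0.904.

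DopR2 and Dop3 had other nearest genes, none of which carries a descriptive symbol. Those of DopR2 were LOC102654084 (r = 0.960), LOC113218521 (0.957), LOC409131 (0.945), LOC100578822 (0.944) and LOC107965041 (0.938), with r between 0.570 and 0.763 in colony 1 alone. Those of Dop3 were LOC724389 (0.929), LOC552585 (0.920), LOC410785 (0.916), LOC409729 (0.906) and LOC410779 (0.905), with 0.381 to 0.712 in colony 1 alone.

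Upstream of the receptors, genes of dopamine synthesis and transport were near the limit of detection, and they mark dopamine neurons and not Kenyon cells. TyHyd, tyrosine hydroxylase, which makes the precursor of dopamine, had a median of 8 counts and was at 0 in 9 of 27 libraries. Dat, the dopamine transporter, which returns dopamine to the releasing neuron, had a median of 2 counts and was at 0 in 11. A count of 0 allows up to 3 counts, for counting error only.

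Both were highest in single libraries of 10:00. TyHyd had 2 and 107 counts in colony 1 and 0 and 70 in colony 2 at that hour, and Dat had 0 and 30 in colony 1 and 0 and 61 in colony 2. The same replicate of each colony was thus high in both genes. Neither gene was called between 10:00 and 22:00 (adjusted p = 0.240 for TyHyd and 0.290 for Dat), although both had an unadjusted p under 0.05, and DESeq2 called neither. In the other comparisons neither was called by either tool, with 1 gene at an unadjusted p under 0.05 between day and night and 1 in the colony by cosine interaction.

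The other amine receptor genes in the table, Oa1 for octopamine, TyrR for tyramine and 5-HT1, 5-HT2alpha, 5-HT2beta and 5-ht7 for serotonin, were likewise not called over time. Over the 7 time points, where edgeR called 2.29% of all genes, 0 of 6 were called by edgeR or DESeq2, and 1 had an unadjusted p under 0.05. The smallest adjusted p-values were 0.286 for TyrR and 0.303 for 5-HT2alpha. TyrR ran from 379 ± 63.0 CPM (SD, n = 4) at 10:00 to 191 ± 112 CPM (n = 3) at 06:00 on day 11, the highest and lowest times of Dop1 as well. The means of that dawn include the low colony 2 library, at 64.9 CPM for TyrR and 54.2 CPM for Dop1. In colony 1 mean Dop1 was 270 CPM at 06:00 on day 11 and 269 CPM at 22:00.

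Between the colonies, where edgeR called 24.9% of all genes, 0 of 6 were called by either tool, and 1 had an unadjusted p under 0.05. Their median log2 difference, colony 2 minus colony 1, was -0.12, beside -0.39 for the 3 dopamine receptor genes and -0.04 over all genes tested. The -0.39 is the value of DopR2, which was not called and was -0.15 without the libraries that stood apart. Of the dopamine receptor genes only Dop3 was called. By day against night, with 3.81% of all genes called, 0 of 6 were called by either tool, with none at an unadjusted p under 0.05. The colony by time interaction called 3 of 6, 5-HT2alpha (adjusted p = 0.000472), 5-HT1 (0.000710) and TyrR (0.00343), beside 22.5% of all genes, and none without the 06:00 day 11 library of colony 2, as for Dop1 and DopR2.

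Among genes of cyclic nucleotide signalling, 1 of the 3 listed, Ac3, Amih and For, was called over time, where 2.29% of all genes were called. Amih, a channel gated by hyperpolarization and cyclic nucleotides, passed the test over the 7 time points (adjusted p = 0.0205), though not when either replicate 2 library of 10:00 was left out. Its mean was 114 ± 38.2 CPM (SD, n = 4) at 10:00 and 61.6 ± 3.78 CPM (n = 4) at 02:00. It was higher by day than at night by 0.53 on the log2 scale (SE 0.107; adjusted p = 0.00663), where 3.81% of all genes were called. That call held when each library was left out in turn. Ac3, an adenylyl cyclase that would act directly below the receptors, was not called over time (adjusted p = 0.268).

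Amih and For were also called between the colonies, in opposite directions, where 24.9% of all genes were called. Amih was higher in colony 2, with 96.7 ± 31.5 CPM (n = 13) against 70.5 ± 11.1 CPM (n = 14) and a log2 difference of 0.42 (adjusted p = 0.00158). For, the cyclic GMP-dependent kinase of foraging behaviour, was lower in colony 2, with 22.7 ± 5.34 CPM against 29.9 ± 4.10 CPM and a log2 difference of -0.43 (adjusted p = 0.00959). Dop3 and For were thus both lower in colony 2 and Amih higher, where 14.3% of all genes were called lower. In the colony by time interaction 2 of the 3 genes were called, Ac3 (adjusted p = 0.0131) and Amih (0.0321), where 22.5% of all genes were. That count was 0 without the 06:00 day 11 library of colony 2 and lower in 7 of the 27 fits that left out 1 library.

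Of the 4 calcium signalling genes Camkii, Pkc, Ip3k and Cac, Ip3k alone was called over time (adjusted p = 0.0381, with 2.29% of all genes called), and that call was lost when any 1 of 15 libraries was left out. Ip3k, an inositol trisphosphate kinase, measured 81.9 ± 16.1 CPM (n = 4) at 10:00 and 47.1 ± 6.91 CPM (n = 4) at 02:00. By day against night edgeR called 0 of the 4 and 3.81% of all genes, with 1 at an unadjusted p under 0.05, and DESeq2 called 1. Between the colonies, with 24.9% of all genes called, 0 of the 4 were called by either tool, with 1 at an unadjusted p under 0.05. The interaction of colony and time called Pkc (adjusted p = 0.000491), Camkii (0.00258) and Cac (0.0210), with 22.5% of all genes, and none of them without the 06:00 day 11 library of colony 2.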

How the data were processed

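Directional libraries were made from polyadenylated RNA of laser-captured tissue, per the labels' protocols. The authors deposited raw whole-number read counts per gene. The submitters' processing notes list Trimmomatic, FastQC, STAR, featureCounts and DESeq2 without versions. The build, the annotation and the strand setting are not given in the sources used here. Overlapping genes are uncertain: in RefSeq's table, used for names alone, LOC102654376 and LOC113219284 (medians 4 and 42 counts) overlap Dop1, and LOC107965601 (median 0) overlaps DopR2. Of 12319 identifiers, 12166 equalled a RefSeq symbol. Replicate libraries differed by a chi-square per degree of freedom of 11.1 to 44.3, so none was counted as a repeat deposit.

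Counts were fitted in R 4.3.3 with edgeR 4.0.16 (TMM, filterByExpr by time point, robust glmQLFit and glmQLFTest) for all 27 libraries with colony and time point as terms. The colony by time and cosine tests added their terms, with a 24 h period. Ratios of counts had 0.5 added to each count and were compared by exact permutation within strata. The scripts were tested on simulated data. Alternatives used DESeq2 1.42.0, limma 3.58.1, other scaling, no filter, summed libraries, single colonies, a replicate block and the removal of each library. Leaving out the libraries that stood apart was chosen after seeing the data. The receptor genes and all lists were chosen with earlier results of these data known. Named are the 3 receptor genes, for each list the called genes (at most 3 per comparison, by smallest p) or else the 2 with the smallest p over time, and for each receptor the 5 most correlated genes. TyHyd was added to its list after the symbols were seen. Intervals cover counting and replicate error within these libraries alone.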

Additional observations from a re-analysis of the deposited data

Results flagged for a closer look

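In 36 sets of 4 to 10 libraries examined for a sample far from the others, 2 sets of the receptor genes had one, and chance flags about 1 set in 20. Dop1 at 06:00 on day 12 was at 190 CPM in the second colony 2 library, with the nearest of the other 3 libraries at 293 CPM. Dop3 at 14:00 was at 17.4 CPM in the first colony 2 library, with the nearest of the others at 33.1 CPM.

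The effect of time differed between the colonies for Dop1 (adjusted p = 0.000589) and DopR2 (adjusted p = 0.00125) by the interaction test of edgeR. Both calls were lost without the 06:00 day 11 library of colony 2, where the adjusted p was 0.557 and 0.684.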

How the results depend on the processing

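Dop3 was lower in colony 2 and called in 35 of 36 alternatives, and the exception was the fit on summed libraries (-0.84 on the log2 scale, adjusted p = 0.0918). Whether the replicate numbers pair libraries was not settled. In colony 1, 10 of 21 pairs of time points deviated together with r over 0.1 (median r 0.065). In colony 2, 4 of 15 did (median r -0.0095). With the replicate block Dop3 differed by -0.77 between colonies (adjusted p = 0.00276) and the Dop1 to DopR2 ratio by 0.34 between day and night (exact p = 0.0054, adjusted 0.0162), and the block ended no call of the receptor genes and made none.

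Single colonies moved other values. Colony 1 alone gave 0.58 for Dop1 between 10:00 and 22:00 (called), 0.0493 for Dop1 between 14:00 and 02:00, an adjusted p of 0.0325 for the DopR2 cosine, 0.00036 for DopR2 between day and night, -0.0020 for DopR2 between the dawns, and ratio differences between day and night of 0.23 both for Dop1 to DopR2 and for DopR2 to Dop3. Colony 2 alone gave 2.23 and 2.31 for Dop1 and DopR2 between the dawns (both called), 0.14 for Dop3 between day and night (0.15 without its 06:00 day 11 library), -0.21 for DopR2 between 10:00 and 22:00 with or without that library, adjusted p-values over time of 0.000358 for Dop1 and 0.00427 for DopR2, and a Dop1 to DopR2 day difference of 0.44.

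Voom with quality weights called Dop1 between 10:00 and 22:00 (0.56, adjusted p = 0.0123). Scaling by total counts gave -0.0376 for DopR2 in that comparison. With 5 added to each count the DopR2 to Dop3 colony difference was 0.26 (adjusted 0.0645). Without the 3 libraries that stood apart, the interaction p-values were 0.604 for Dop1 and 0.846 for DopR2, DopR2 differed by -0.15 between the dawns, and the Dop1 to DopR2 colony difference was 0.13. Apart from the calls that ended in smaller fits, the cause was not tested.

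Leaving out 1 library at a time gave 0.51 to 0.67 for Dop1 between 10:00 and 22:00, -0.16 to 0.34 for Dop3 between 14:00 and 02:00, -0.13 to 0.0655 for Dop3 between day and night, -0.12 to 0.84 for DopR2 between the dawns, -0.0832 to 0.11 for DopR2 between 10:00 and 22:00, 0.24 to 0.43 for the DopR2 to Dop3 colony difference and -0.11 to 0.0298 for its day difference. Adjusted interaction p-values ranged from 0.000101 to 0.557 for Dop1, 8.9e-05 to 0.684 for DopR2 and 0.0462 to 0.723 for Dop3.

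Counts over all genes varied with the setting. Over time 225 genes were called, 818 by DESeq2, 143 with the replicate block and 105 to 569 with 1 library left out. Between day and night 374 were called, 769 by DESeq2 and 655 without the libraries that stood apart, and for the cosine 423, 904 and 874 in the same order. Between 10:00 and 22:00 the count was 212, 517 by DESeq2 and 70 without those libraries, and between 14:00 and 02:00 it was 9, 145 and 576. Between the colonies it was 2449, 1227 without those libraries and 24 in summed libraries, and for the interaction 2209 and 9 without them. DESeq2 gave no adjusted p for Dop3 in the colony by cosine interaction. The summed libraries allow no interaction test, having no residual degrees of freedom. Depth was lowest for Dop3, with 54 counts in its lowest library.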
